A study of Drosophila melanogaster with 9 samples.

Results

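The non-coding RNA features were the rows of the genic tables whose identifier was a RefSeq non-coding transcript (NR_). There were 82 such rows of 8510, and 75 distinct features of 4601 were left when repeated rows (identical in position, strand and values) were merged. RefSeq names of the Release 6 assembly matched 75 of the 82 rows and left 7 without a name. The features came from 66 genes or unnamed transcripts, and a gene of several exons could appear as several features. By the symbols they comprised 15 small nucleolar RNAs (snoRNAs), 4 small Cajal body RNAs (scaRNAs), 2 small nuclear RNAs (snRNAs), 1 small non-coding RNA (CR43603), the 7SL RNA, 21 features of antisense RNAs (asRNAs, named for lying opposite another gene), 23 features of other long non-coding RNAs (lncRNAs), 2 Suppressor of Stellate copies and 6 unnamed features. All 75 lay on the minus strand, against 2315 of the 4526 distinct features of protein-coding transcripts, so non-coding RNAs of the plus strand were not analysed here.

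Small RNAs of 18 to 30 nt were sequenced from ovaries of females aged 3 to 5 days, in 3 libraries for each of 3 groups. According to the study, the RNA was taken from egg chambers of mid to late stages, so the earliest stages were left out. The WT females were hs-Flp / +; FRTG13 / FRTG13, ovo[D1-18], and the mutants carried FRTG13, enok[1] or FRTG13, enok[2] in place of the first FRTG13 chromosome. All groups thus shared the heat-shock-driven FLP recombinase, heat shock of the larvae and the dominant female-sterile ovo transgene, which lets only egg chambers with a recombined germline develop to later stages. The germline was homozygous for the enok allele while the surrounding follicle cells need not have been, so a library mixes mutant germline with somatic cells of another genotype. Enok is a histone acetyltransferase. According to the study the enok1 allele gives a truncated protein and the enok2 allele a full-length protein with a changed residue in the acetyltransferase domain. In such bulk samples, fewer cells of a type and less RNA per cell cannot be told apart.

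Ovarian small RNAs come from several pathways. PIWI-interacting RNAs (piRNAs) are cut from long single-stranded precursors, many of them from clusters in heterochromatin and some from messenger or long non-coding RNAs, whereas structured RNAs such as snoRNAs and 7SL leave fragments of their own strand. Reads on the sense strand have the strand of the annotated RNA, and antisense reads come from the other strand of the same stretch. The deposited values, called abundance here, are on a linear scale relative to the microRNAs of the same library, and they are given per feature and not per length.

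Across all genic features the libraries summed to between 19678 and 23951 units of sense abundance, and the non-coding features took between 8.72% and 13.0% of it. Of the antisense abundance they took between 10.6% and 14.3%. Divided by the value of 1 read in each library, this was between 4285 and 7928 sense and between 359 and 523 antisense read equivalents, so features near an abundance of 1 rest on a few reads per library. As a check of the tissue, the germline piRNA cluster 42AB and the follicle cell cluster flam were both present in every library. Sense 42AB lay between 61091 and 63768 in WT, between 7992 and 12120 in enok1 and between 10950 and 13594 in enok2, while sense flam lay between 21159 and 28135 over all 9 libraries.

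The strands on which the small RNAs lay were examined first, because this separates the kinds of RNA without comparing the groups. More antisense than sense abundance, in the mean over the 9 libraries, was found at 35 of the 75 non-coding features (46.7%) and at 259 of the 4526 protein-coding features (5.7%). A mean antisense abundance of at least 1 was reached by 32 non-coding features (42.67%) and 184 protein-coding ones (4.07%). On the sense strand a mean of at least 1 was reached by 39 (52.0%) and 2730 (60.32%). These shares are descriptions of values per feature, and the lengths of the features were not compared.

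The 23 small structured RNAs (7SL, snRNAs, snoRNAs, scaRNAs and CR43603) gave small RNAs almost only on their own strand. All 23 had a sense mean of at least 1, and 20 had no antisense abundance in any library. The other 3 were the neighbouring snoRNAs lola-a, lola-b and lola-c, whose antisense abundance was 0 in all 3 WT libraries and at most 1.42 in a mutant library. The lowest sense share of any of the 23 was 99.7%. Of the 15 snoRNAs, 13 overlapped a protein-coding gene of the same strand in the BDGP6 annotation, as did all 4 scaRNAs.

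The asRNAs showed the opposite picture. Of their 21 features, 18 had more antisense than sense abundance, 16 had an antisense mean of at least 1 and only 2 a sense mean of at least 1, while 9 had no sense abundance in any library. All 18 asRNA genes overlapped a protein-coding gene on the opposite strand, so a read antisense to such an RNA has the strand of the messenger RNA across from it. For example, an exon of CR43809 (NR_073816, chromosome 2L, start 21104034, dm3) lay opposite the 3′ untranslated region (UTR) of CG9257, with starts 107 bases apart. Its antisense abundance was 37.62, 39.5 and 37.8 in WT, 24.82, 29.93 and 44.08 in enok1, and 30.97, 31.56 and 37.28 in enok2. The sense abundance of the CG9257 feature was 40.82, 43.89 and 41.98 in WT, 28.89, 32.2 and 48.53 in enok1, and 37.12, 35.93 and 39.63 in enok2. The values of this pair went up and down together from library to library (Pearson's r = 0.98 over 9 libraries, a description, since the overlapping stretches can hold the same reads). It was picked as the most correlated of 20 pairs of an asRNA feature with a feature of the gene across from it. The starts of a pair lay within 4000 bases, and whether its 2 features overlap was not checked. The median r of the 20 was 0.11, the next highest was 0.70 and 9 were below 0. The CG9257 pair thus does not stand for the other asRNAs.

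**Figure D1:**
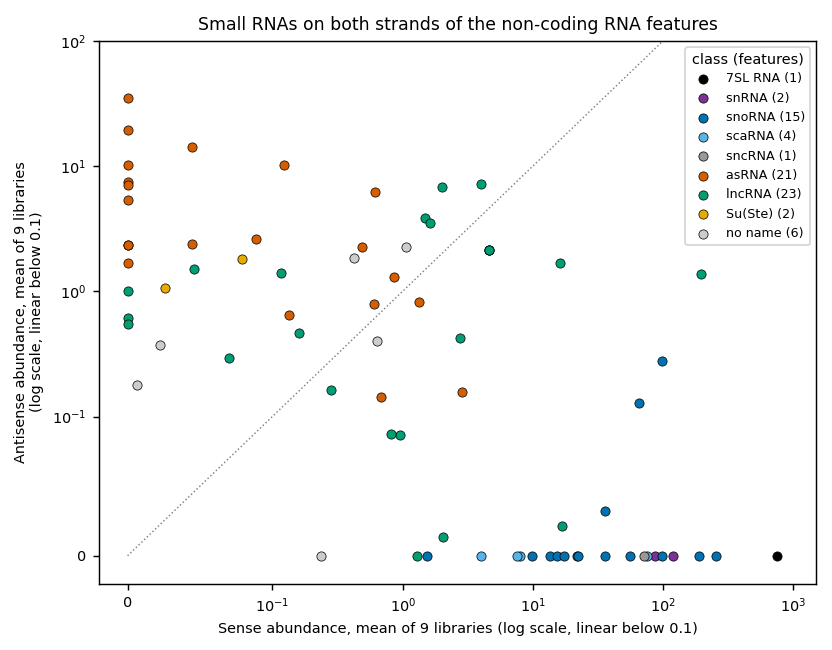
Mean sense abundance (x axis) against mean antisense abundance (y axis) of the 75 distinct non-coding RNA features over the 9 libraries, both axes logarithmic and linear below 0.1, coloured by class, with the dotted line marking equal abundance. The structured RNAs lie along the bottom with an antisense mean near 0, most asRNAs lie at the left above the line, and lncRNAs are found on both sides.

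Of the 75 features, 61 had a mean of at least 1 on either strand and could be tested, 10 of them on both strands. The other 14 were tested on neither. They included roX1, an RNA of the dosage compensation complex that acts on the male X chromosome, whose sense abundance lay between 0.25 and 0.54 in WT. Among those tested, 6 sense and 7 antisense features had a group mean below 1 and passed through the other groups. These are CR42549, Pi4KIIalpha-a, CR43958, CR44053, CR40053 and NR_073826 on the sense strand. The antisense ones are CR34335, CR43496 (NR_047773), both Suppressor of Stellate copies, CR43656 (NR_073670), CR43765 and CR44042. A feature that passed in this way had to differ between groups, so its call is a description and no support.

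The mutants were then compared with WT. Abundances were tested with limma on log2(abundance + 1) over all tested genic features of a strand, and a feature was called at a Benjamini-Hochberg adjusted p under 0.05. On the sense strand 3 of 39 non-coding features were called lower and 4 higher in enok1, where 1.7% and 6.32% of all 2769 tested features were called. Either way this was 7 of 39, against 8.02%. In enok2, 3 were lower and 0 higher, against 0.578% and 1.01% of all features, or 1.59% either way. By the same test 5 of the 39 had a positive change in enok2 with an unadjusted p under 0.05 (12.8%, against 13.8% of all features). A negative change at that level was found at 8 (20.5%, against 3.83%). In enok1, 7 were positive (17.9%, against 19.4%) and 7 negative (17.9%, against 3.68%) at that level. On the antisense strand 7 of 32 were lower and 0 higher in enok1, against 14.8% and 6.94% of all 216 tested features (21.8% either way). At an unadjusted p under 0.05, 3 had a positive change (9.38%, against 16.7%) and 13 a negative one (40.6%, against 21.3%). In enok2, 8 were lower and 3 higher, against 15.7% and 10.6% (26.4% either way). At an unadjusted p under 0.05, 4 had a positive change there (12.5%, against 14.8%) and 10 a negative one (31.2%, against 18.5%). Of the non-coding antisense features, 21.9% were thus called in enok1, all of them lower. In enok2, 25.0% were called lower and 9.38% higher (34.4% either way). The shares called lower lay above those of all features in both mutants. In all these counts the lncRNA CR43488 stands as 3 features with the same values. Counted by gene, the antisense features called lower came from 4 genes in enok1 and 5 in enok2. Group means were all at least 1 at 33 sense and 25 antisense features. Among these the sense calls were 2 lower and 1 higher for enok1 and 2 lower for enok2. The antisense calls were 5 lower for enok1 and 5 lower and 3 higher for enok2, and CR43488 made up 3 of the 5 lower ones in each mutant. The shares of all genic features under this restriction were not computed, so these counts are a description without a background. Both comparisons share the WT libraries. The balance of calls depended on the scale, since with abundances divided by the summed clusters of each library, which were lower in the mutants, the enok1 sense calls split into 3 down and 14 up (7.69% and 35.9%, against 0.686% and 46.3% of all features). The enok2 sense calls then split into 3 down and 8 up, against 0.542% and 19.4%. The antisense calls split into 6 down and 5 up for each mutant (18.8% and 15.6%), against 11.1% and 26.9% of all features for enok1 and 11.6% and 17.6% for enok2.

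The tested sense features had a median log2 fold change of −0.01 for enok1 and 0.08 for enok2, beside 0.20 and 0.12 over all tested features. For antisense features it was −0.30 and −0.20, beside −0.04 in each mutant over all. Without any model, all 3 enok1 libraries lay below all 3 WT libraries at 5 of the 39 sense features and above them at 10, where 4.88% and 23.2% of all features did so. In enok2 these numbers were 7 and 7, against 6.39% and 16.3%. Of the antisense features, 11 of 32 lay below and 2 above in enok1, against 20.8% and 15.7%, and 13 below and 3 above in enok2, against 22.2% and 14.8%. These medians and counts also hold CR43488 as 3 equal features.

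**Figure D2:**
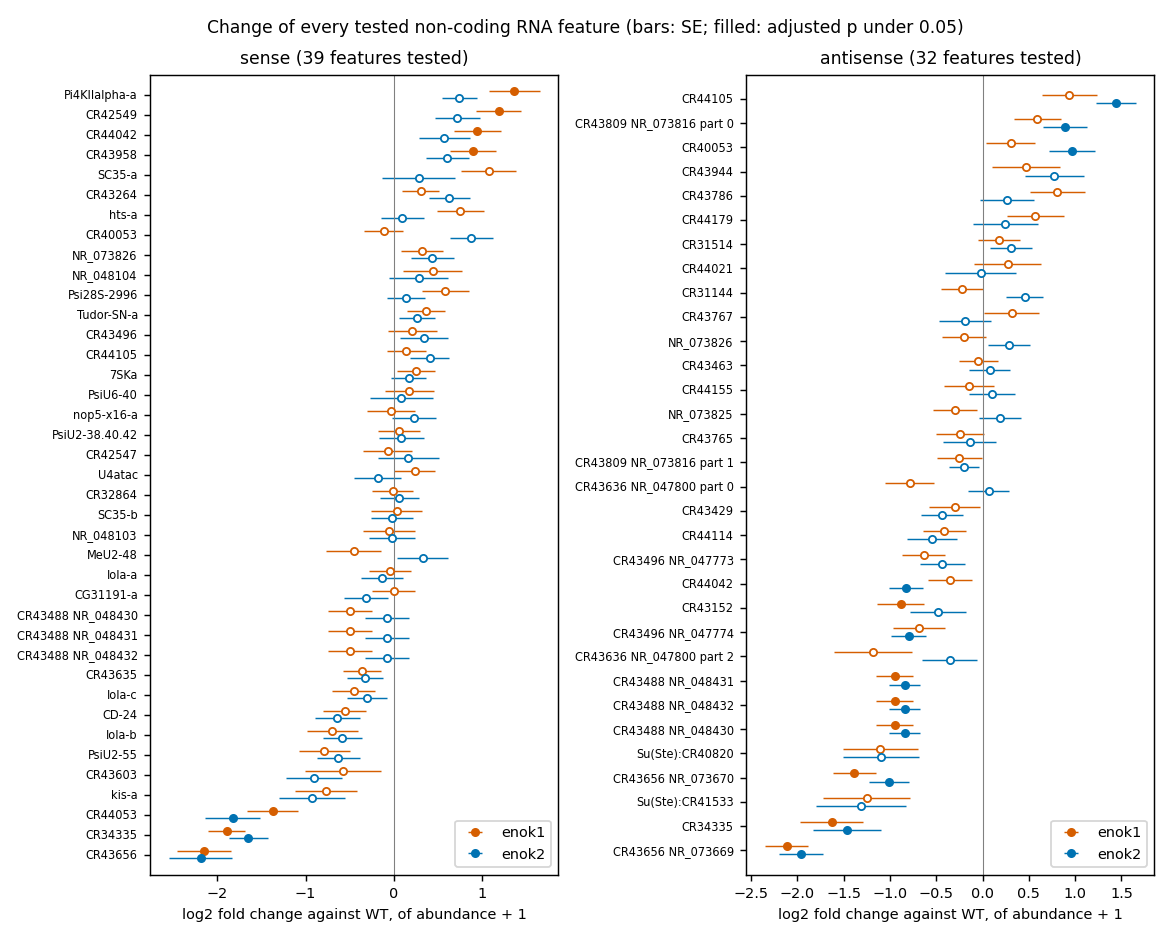
log2 fold change of abundance + 1 against WT (x axis) for each tested feature (y axis), on the sense strand at left (39 features) and the antisense strand at right (32 features), with enok1 in orange and enok2 in blue, bars giving the SE and filled points an adjusted p under 0.05. The lncRNAs CR34335 and CR43656 lie at the lower end of both panels, and most structured RNAs lie near 0 with open points.

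The lncRNA CR34335 (NR_047748, chromosome X, start 3439895) gave the most small RNAs of any lncRNA feature. It lies in a stretch of the same strand as DIP-alpha, a gene for a cell-surface immunoglobulin protein. Its sense abundance was 400.21, 381.4 and 326.25 in WT, 98.33, 100.57 and 95.84 in enok1, and 135.47, 98.57 and 118.9 in enok2. Every mutant library was thus well below every WT library. The level fell to 26.6% of WT in enok1 (log2 fold change −1.89, SE 0.21, limma adjusted p = 0.000254) and to 31.9% in enok2 (−1.65, SE 0.22, limma adjusted p = 0.00355). Leaving out any 1 library kept both calls. The calls also held on the scale of the cluster sum (−1.27 and −1.19). With the residual variance of the feature alone, an alternative chosen after seeing the data, the adjusted p in enok2 was 0.0678.

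The few antisense reads of CR34335 were also lower. Antisense abundance was 2.8, 1.6 and 5.43 in WT, 0.54, 0 and 0.4 in enok1, and 0.71, 0 and 0.78 in enok2. It fell in both mutants (log2 fold change −1.63, limma adjusted p = 0.00931 in enok1, and −1.46, limma adjusted p = 0.0217 in enok2), and the call in enok2 was lost without enok2 replicate 2 (limma adjusted p = 0.0844). The feature passed the filter through WT alone, and without the filter neither call held (limma adjusted p = 0.258 and 0.468). At least 98.4% of its abundance was sense in every library.

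The lncRNA CR43656, near the centromeric end of the X chromosome, lost small RNAs on both strands. Its feature NR_073669 (start 22272103) had an antisense abundance of 13.66, 13.77 and 19.04 in WT, 2.17, 3.62 and 2.64 in enok1, and 3.78, 3.89 and 2.16 in enok2. Its sense abundance was 5.45, 9.65 and 12.96 in WT, 0.89, 2.04 and 0.91 in enok1, and 2.41, 1.06 and 0.44 in enok2. The groups did not overlap on either strand. Antisense abundance fell to 18.1% of WT in enok1 (log2 fold change −2.12, SE 0.23, limma adjusted p = 0.000297) and 21.2% in enok2 (−1.96, SE 0.24, limma adjusted p = 0.000799). Sense abundance fell to 13.7% (−2.15, SE 0.30, limma adjusted p = 0.00139) and 13.9% (−2.19, SE 0.36, limma adjusted p = 0.0101), the latter call being lost without WT replicate 3 (limma adjusted p = 0.0611) or without the filter on low values (0.0551). With the variance of the feature alone the sense calls were lost (adjusted p = 0.111 and 0.199 in that fit), while the antisense ones held under all 16 alternatives that tested them. Unlike the structured RNAs, it had sense and antisense reads in every library, with a sense share between 16.9% and 41.2%. Another feature of the gene (NR_073670, start 22272738) fell on the antisense strand as well (−1.38, limma adjusted p = 0.00392 in enok1, and −1.01, limma adjusted p = 0.0102 in enok2), but it too passed the filter through WT, and without the filter both calls were lost (limma adjusted p = 0.0724 and 0.149). In the BDGP6 annotation CR43656 overlaps CG42346 on the opposite strand.

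The asRNA CR44053 (NR_073657, chromosome X, start 16700641) lies opposite ppk28, a gene for a sodium channel subunit, and was 1 of the 2 asRNA features with a sense mean of at least 1. Sense abundance was 1.6, 3.19 and 5.01 in WT, 0.54, 0.76 and 0.4 in enok1, and 0.47, 0 and 0 in enok2. All mutant libraries lay below all WT libraries. It fell in enok1 (log2 fold change −1.37, SE 0.29, limma adjusted p = 0.0165) and in enok2 (−1.83, SE 0.31, limma adjusted p = 0.0135). It passed the filter through WT alone, and both calls were lost without the filter (limma adjusted p = 0.0539 and 0.0555) and without WT replicate 3 (0.0540 and 0.0611 by the same test). The call in enok1 was also lost without enok1 replicate 3, and that in enok2 without enok2 replicate 2 or 3. CR34335, CR43656 and CR44053 were the 3 sense features called lower, and they were so in each mutant.

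CR43656 (r = 0.90), CR44053 (r = 0.84) and CR43635 (r = 0.84) had the sense profiles most like that of CR34335 among 38 candidates, by Pearson's correlation of log2(abundance + 1) over the 9 libraries. This is a description, since the libraries share their groups and normalization. The third of them, CR43635, was called in neither mutant, with a sense abundance of 3.05, 3.44 and 3.66 in WT, 2.09, 2.87 and 2.34 in enok1, and 2.42, 2.37 and 2.68 in enok2. It gave a log2 fold change of −0.36 for enok1 and −0.33 for enok2, although its mutant libraries all lay below those of WT.

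Antisense small RNAs fell at the lncRNAs CR43488 and CR43496 too. CR43488 lies opposite GluClalpha, which encodes a glutamate-gated chloride channel. It is listed with the same values at 3 starts on chromosome 3R (NR_048430, NR_048431 and NR_048432), which therefore hold the same reads and count as 1 gene. Its antisense abundance was 3.56, 3.33 and 3.65 in WT, 0.96, 1.59 and 1.51 in enok1, and 1.8, 1.29 and 1.48 in enok2, with all mutant libraries below all WT libraries. It fell in both mutants (log2 fold change −0.95, SE 0.20, limma adjusted p = 0.00931 in enok1, and −0.84, SE 0.17, limma adjusted p = 0.00741 in enok2), and none of the 16 alternatives that tested it ended these calls. Its sense abundance was called in neither mutant (−0.50, limma adjusted p = 0.265, and −0.08, limma adjusted p = 0.911).

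CR43496 lies opposite small ovary (sov), which encodes a zinc-finger protein needed for oogenesis. The antisense abundance of NR_047774 (chromosome X, start 6652643) was 7, 5.19 and 4.6 in WT, 2.03, 4.74 and 2.83 in enok1, and 2.84, 2.67 and 2.75 in enok2. The enok2 libraries lay close together below those of WT, while enok1 overlapped WT through replicate 2. It was lower in enok2 (log2 fold change −0.80, limma adjusted p = 0.0164) and was not called in enok1 (−0.69, limma adjusted p = 0.103). The call in enok2 was lost without WT replicate 1, enok2 replicate 2 or enok2 replicate 3. Counted by gene, antisense abundance fell in both mutants at 3 genes, namely CR34335, CR43656 and CR43488.

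**Figure D3:**
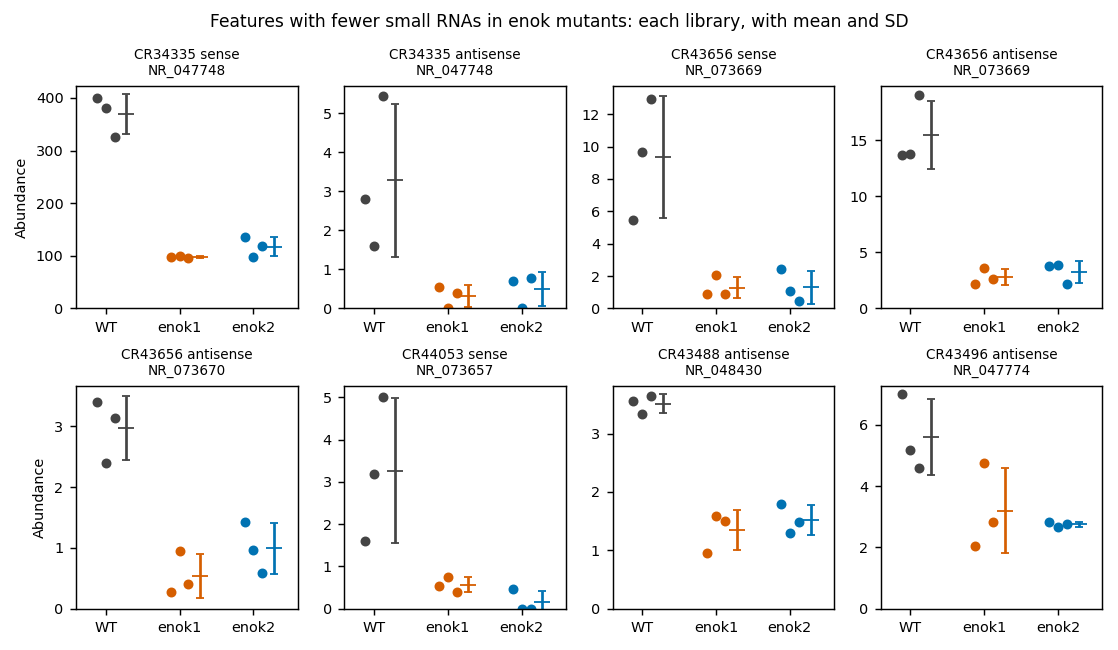
Abundance (y axis, linear from 0) in each of the 3 libraries of WT, enok1 and enok2 for the lncRNA features, and the asRNA CR44053, with fewer small RNAs in the mutants, with the mean and SD beside the points. In every panel except antisense CR43496, where enok1 reaches 4.74 and the lowest WT library 4.6, all mutant points lie below all WT points.

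Other features gave more small RNAs in a mutant. On the sense strand 4 were higher in enok1 and none of these was called in enok2, although all 4 had a positive log2 fold change there. The lncRNA CR42549 (NR_033164, chromosome 3R, start 5373826) overlaps mura on the same strand. Its sense abundance was 0.7, 0.7 and 1.04 in WT, 1.97, 4.55 and 3.24 in enok1, and 3.19, 1.46 and 1.57 in enok2. All mutant libraries were above all WT libraries, with a log2 fold change of 1.19 in enok1 (SE 0.26, limma adjusted p = 0.0187) and 0.72 in enok2 (SE 0.25, limma adjusted p = 0.185).

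The snoRNA Pi4KIIalpha-a (NR_048326, chromosome 3R, start 1385601), in the gene of a phosphatidylinositol 4-kinase, was the only structured RNA called in either mutant. Sense abundance was 0.4, 0.4 and 0.42 in WT, which is about the value of 1 read in those libraries. It was 3.53, 3.79 and 1.21 in enok1 and 1.42, 1.46 and 1.18 in enok2. It was higher in enok1 (log2 fold change 1.37, SE 0.29, limma adjusted p = 0.0161) and was not called in enok2 (0.74, limma adjusted p = 0.109). Both CR42549 and Pi4KIIalpha-a passed the filter only through the mutants. Without the filter the call of Pi4KIIalpha-a was lost (limma adjusted p = 0.0530) and that of CR42549 was kept. The former was also lost without enok1 replicate 1 or 2, and that of CR42549 without WT replicate 1 or without enok1 replicate 2 or 3.

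The other 2 sense calls in enok1 lay at the threshold. CR44042 (NR_074071, chromosome 2RHet, start 474800) had a sense abundance of 10.02, 14.57 and 7.77 in WT, 27.15, 20.29 and 16.97 in enok1, and 20.5, 11.23 and 17.76 in enok2 (log2 fold change 0.95, limma adjusted p = 0.0495 in enok1, and 0.57, limma adjusted p = 0.344 in enok2). CR43958 (NR_073619, chromosome 4, start 578069), overlapping Tdg, had 0.4, 0.8 and 0.42 in WT, 1.63, 3.03 and 1.21 in enok1, and 1.42, 1.94 and 0.78 in enok2 (log2 fold change 0.90 in enok1, just past the threshold, and 0.61 in enok2, limma adjusted p = 0.236). CR43958 passed the filter only through the mutants, and its call was lost without the filter (limma adjusted p = 0.0909). Leaving out any 1 of the 6 libraries ended the call of CR43958, and leaving out any except WT replicate 2 ended that of CR44042.

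The sense call of CR44042 was found in enok1 alone and its antisense call, a lower one, in enok2 alone, so no comparison called both strands. Its antisense abundance was 1.8, 2.87 and 2.57 in WT, 1.11, 1.84 and 2.1 in enok1, and 0.89, 0.97 and 0.86 in enok2. It was lower in enok2 (log2 fold change −0.83, SE 0.18, limma adjusted p = 0.0123) and was not called in enok1 (−0.35, limma adjusted p = 0.343). The antisense feature passed the filter through WT and enok1, and the call was lost without the filter (limma adjusted p = 0.0920). The sense share of its abundance, which does not depend on the normalization to microRNAs, was 84.8%, 83.5% and 75.1% in WT, 96.1%, 91.7% and 89.0% in enok1, and 95.8%, 92.0% and 95.4% in enok2. This share was picked out after its values were seen and was not tested, and every mutant library lay above every WT library.

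On the antisense strand 3 features were higher in enok2. CR44105 (NR_073827, chromosome 2R, start 919500), near the centromeric end of the arm, had an antisense abundance of 3, 2.75 and 3.47 in WT, 3.94, 7.97 and 9.61 in enok1, and 7.49, 11.23 and 11.95 in enok2. Every mutant library was above every WT library. The log2 fold change was 1.44 in enok2 (SE 0.21, limma adjusted p = 0.00168) and 0.94 in enok1 (SE 0.30, limma adjusted p = 0.0517), and the call in enok2 was kept whichever library was left out. Its sense abundance was called in neither mutant (0.14 and 0.41).

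CR40053 (NR_073977, chromosome 3L, start 24003031) had an antisense abundance of 3.2, 2.39 and 1.25 in WT, 2.98, 3.41 and 2.43 in enok1, and 5.67, 4.86 and 5.1 in enok2. The enok2 libraries stood above those of both other groups (0.97 on the log2 scale, SE 0.25, limma adjusted p = 0.0224 against WT), while enok1 overlapped WT (0.30, limma adjusted p = 0.482). Its sense abundance was 1.2, 0.8 and 1.25 in WT, 0.81, 0.76 and 1.21 in enok1, and 2.84, 3.88 and 1.96 in enok2. The enok2 libraries again stood apart, but the change was not called (0.88, limma adjusted p = 0.11). The antisense call was lost without any 1 of the enok2 libraries.

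The remaining antisense calls were of asRNAs. A first feature of CR43809 (start 21102586) was higher in enok2, at 0.8, 1.2 and 2.09 in WT, 2.44, 3.03 and 2.02 in enok1, and 2.84, 3.88 and 3.14 in enok2 (log2 fold change 0.89, limma adjusted p = 0.0253 in enok2, and 0.59, limma adjusted p = 0.119 in enok1). CR43152 (NR_047801, chromosome X, start 12867858), opposite CG15721, was lower in enok1, at 6.8, 9.58 and 5.85 in WT, 2.71, 4.74 and 3.24 in enok1, and 4.73, 3.16 and 7.65 in enok2 (−0.88, limma adjusted p = 0.0375 in enok1, and −0.48, limma adjusted p = 0.339 in enok2). The former call was lost without WT replicate 1 or 2 or enok2 replicate 2 or 3, and the latter without WT replicate 1 or 2 or enok1 replicate 1 or 3. Without the filter on low values the enok2 calls of CR44105 (limma adjusted p = 0.0547), CR43496 (0.131), CR40053 (0.323) and CR43809 (0.324) and the enok1 call of CR43152 (0.355) were lost as well.

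**Figure D4:**
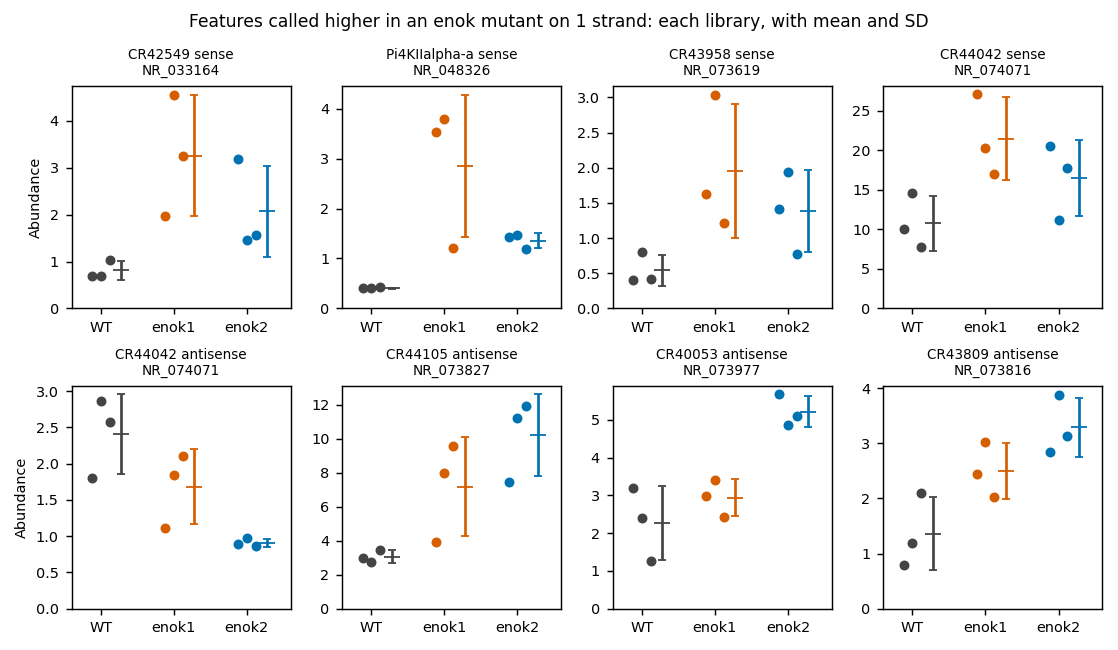
Abundance (y axis, linear from 0) in each of the 3 libraries of WT, enok1 and enok2 for the features called higher in a mutant on 1 strand, with the mean and SD beside the points, and for CR44042 both strands. The sense points of CR42549 and Pi4KIIalpha-a and the antisense points of CR44105 lie above WT in every mutant library, whereas antisense CR44042 lies below WT in enok2.

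The most abundant antisense features were asRNAs and were not called in either mutant. The other exon of CR43809 with a mean of 34.8 had a log2 fold change of −0.25 in enok1 and −0.20 in enok2. CR43636 (NR_047800, opposite CG15721) had an antisense abundance of 24.81, 21.14 and 20.05 in WT, 8.14, 15.91 and 14.15 in enok1, and 17.02, 26.22 and 27.08 in enok2 at its feature starting at 12864509. The enok1 libraries lay below those of WT but missed the threshold (−0.79, limma adjusted p = 0.0631), and enok2 did not move that way (0.07, limma adjusted p = 0.883). Its feature starting at 12867043 gave −1.18 in enok1 (limma adjusted p = 0.0725) and −0.35 in enok2.

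CR31144, opposite the ribosomal protein gene RpL3, had an antisense mean of 14.1 over the 9 libraries. CR31514, opposite RpS29 and CG12947, had 10.3. CR44155, opposite the ion channel gene rpk, had 10.2. Their log2 fold changes lay between −0.22 and 0.45 over both mutants. Summed over the 21 asRNA features, antisense abundance was 137 ± 14.9 (WT), 119 ± 17.6 (enok1) and 141 ± 8.79 (enok2, SD, n = 3). The sums of the mutants were 86.7% and 102% of WT, and a difference beyond the spread was not resolved (2-sided exact permutation p = 0.4 and 0.9). On the scale of the cluster sum they were 133% and 141%.

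The 2 Suppressor of Stellate copies, CR40820 and CR41533, belong to a repeat family of the Y chromosome known as a source of piRNAs in the testis, and lie on the unplaced sequence U in dm3. Their antisense abundance was carried by 1 library. CR41533 had 8.8, 1.9 and 1.43 in WT, 0.84, 0.61 and 0.72 in enok1, and 0.46, 0.73 and 0.77 in enok2. CR40820 had 5.02, 1.43 and 0.8 in WT, 0.45, 0.3 and 0.41 in enok1, and 0.26, 0.41 and 0.51 in enok2. All mutant libraries were below all WT libraries, but WT replicate 1 stood far above the others and neither copy was called, with adjusted p-values from limma between 0.0784 and 0.098. The copies share sequence, so their reads cannot be assigned to one of them with certainty. All libraries were from ovaries of females, and where these reads arose was not tested.

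The sum over the structured RNAs was close to WT in both mutants, while single members lay on either side. Their summed sense abundance was 2119.09, 1888.84 and 2352.39 in WT, 1968.07, 2053.29 and 2061.77 in enok1, and 1993.72, 1916.73 and 2148.53 in enok2. The mutant libraries lay within or near the WT range, at 95.6% of WT in enok1 and 95.3% in enok2 (2-sided exact permutation p = 0.7 for each, where 0.1 is the smallest p that 3 libraries against 3 can give), but at 149% and 131% on the scale of the cluster sum. Of the 23, 1 was called in enok1 and 0 in enok2 by limma, with 8 and 6 at an unadjusted p under 0.05, where 23.1% and 17.6% of all features were. Of the 8 in enok1, 4 were lower and 4 higher, where 3.68% and 19.4% of all features were. Of the 6 in enok2, 5 were lower and 1 higher, against 3.83% and 13.8%. Lower members at this level were thus more frequent among the 23 than over all features. The log2 fold changes of the 23 lay between −0.79 and 1.37 for enok1 and between −0.93 and 0.74 for enok2.

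The 7SL RNA, the RNA of the signal recognition particle, had the largest value of all non-coding features. Its row on chromosome 3R (start 2645855) is shared by the symbols CR32864 and CR42652. Sense abundance was 881.65, 640.23 and 708.89 in WT, 691.29, 880.52 and 639.94 in enok1, and 682.07, 879.72 and 764.29 in enok2. The groups overlapped fully, with a log2 fold change of −0.01 in enok1 (95% interval −0.52 to 0.49) and 0.07 in enok2 (−0.43 to 0.56).

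Neither snRNA was called. 7SKa, a copy of the RNA that holds the elongation factor P-TEFb inactive, had 80.04, 75.4 and 78.53 in WT, 99.28, 100.76 and 80.88 in enok1, and 93.62, 86.43 and 83.58 in enok2. All mutant libraries lay above those of WT, but by little (0.25, limma adjusted p = 0.511, and 0.17, limma adjusted p = 0.731). U4atac, of the minor spliceosome, had 109.66, 120.88 and 114.04 in WT, 176.59, 111.37 and 126.17 in enok1, and 91.26, 75.26 and 149.5 in enok2, with overlapping groups.

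The snoRNAs guide the methylation or pseudouridylation of other RNAs. The largest value among them was that of nop5-x16-a, with 192.1, 227.41 and 302.86 in WT, 182.28, 207.96 and 329.98 in enok1, and 309.24, 225.79 and 304.89 in enok2. The groups overlapped (−0.03 and 0.23). CD-24, in the ribosomal protein gene RpS3A on chromosome 4, had 193.3, 233.79 and 310.38 in WT, 163.02, 138.64 and 194.1 in enok1, and 195.75, 128.67 and 146.36 in enok2. The log2 fold change was −0.56 in enok1 (limma adjusted p = 0.195) and −0.64 in enok2 (limma adjusted p = 0.233).

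The 3 snoRNAs of the lola gene, a transcription factor gene, showed log2 fold changes of −0.04 and −0.13 for lola-a, −0.69 and −0.58 for lola-b and −0.45 and −0.31 for lola-c in enok1 and enok2. All 3 mutant libraries of each allele lay below WT at lola-b, at 85.64, 75.94 and 93.85 in WT, 32.82, 56.82 and 75.22 in enok1, and 52.49, 49.69 and 68.41 in enok2. None was called (limma adjusted p = 0.157 and 0.209 for lola-b). In enok1 the snoRNA SC35-a had 10.85, 15.91 and 16.58 against 7.2, 9.58 and 3.34 in WT (1.08, limma adjusted p = 0.0519), whereas SC35-b in the same gene gave 0.03.

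The most abundant scaRNA was MeU2-48, at 74.04, 59.84 and 85.64 in WT, 39.06, 40.15 and 92.2 in enok1, and 89.84, 62.64 and 134.2 in enok2. The scaRNAs guide modifications of spliceosomal snRNAs. The replicates of MeU2-48 in enok1 differed more among themselves than the groups did (−0.45, limma adjusted p = 0.407 in enok1, and 0.33, limma adjusted p = 0.627 in enok2). The small RNA CR43603, in CG10576, varied likewise, from 59.05 to 152.05 in WT, from 33.97 to 124.23 in enok1 and from 45.64 to 49.18 in enok2 (−0.58 and −0.90, limma adjusted p = 0.445 and 0.185). The remaining snoRNAs and scaRNAs were not called in either mutant. Among them CG31191-a had a log2 fold change of −0.0012 and −0.31 (enok1 and enok2), Tudor-SN-a 0.37 and 0.27, hts-a 0.75 and 0.10, kis-a −0.77 and −0.93, and PsiU2-55 −0.79 and −0.63.

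**Figure D5:**
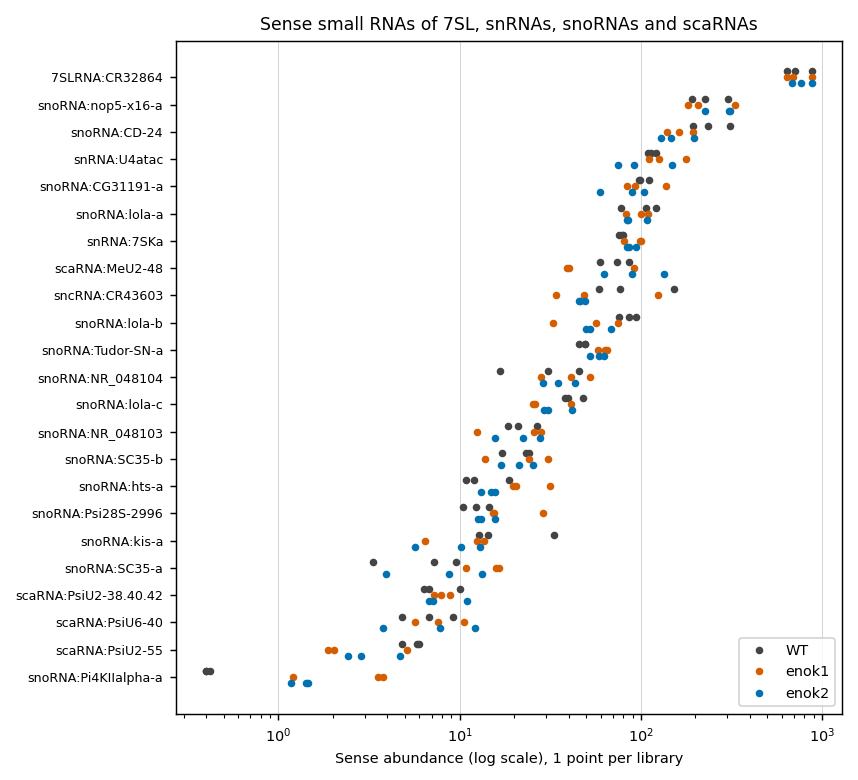
Sense abundance (x axis, log scale) of the 23 structured RNAs in each library, with 3 points each for WT (grey), enok1 (orange) and enok2 (blue), ordered by mean from 1.53 for Pi4KIIalpha-a to 752 for the 7SL RNA. The colours intermingle along most lines, and the bottom line, Pi4KIIalpha-a, is where all mutant points lie to the right of WT by the widest margin.

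Summed over all 75 features, sense abundance was 2562 ± 210.1 (WT), 2199 ± 50.9 (enok1) and 2216 ± 130.4 (enok2, SD, n = 3). The enok1 sum was 85.9% of WT (2-sided exact permutation p = 0.1) and the enok2 sum 86.5% (p = 0.2 by the same exact test), whereas on the scale of the cluster sum they were 133% and 119%. CR34335 accounted for most of the difference, since without it, an alternative added after seeing the data, the sums were 95.8% and 95.7% of WT (exact permutation p = 0.7 for each). The lncRNA features had a summed sense abundance of 430 ± 33.8 (WT), 162 ± 5.64 (enok1) and 187 ± 29.8 (enok2). The fall of this sum was that of CR34335, since the other 22 lncRNA features summed to 60.3 ± 4.73, 64.2 ± 3.28 and 68.9 ± 11.3 (106% and 114% of WT, exact permutation p = 0.3 for each). Those features still include CR43656, which was itself lower. The antisense sums of all 23 were 51.0 ± 5.33, 26.9 ± 6.52 and 34.3 ± 2.12, with all mutant libraries below all WT libraries on both strands (exact permutation p = 0.1 for each). These sums hold the equal rows of CR43488 in triplicate. With that gene counted once the antisense sums were 44.0 ± 5.03, 24.2 ± 5.84 and 31.3 ± 2.55. When CR34335 and CR43656 were left out as well, an alternative added after seeing the data, they were 22.2 ± 0.99, 20.5 ± 5.13 and 26.5 ± 3.67 (exact permutation p = 0.9 and 0.2). On the scale of the cluster sum the lncRNA sums were 58.8% and 59.3% of WT for sense and 79.7% and 92.7% for antisense abundance. With CR43488 counted once the antisense sums on that scale were 83.1% and 98.1%, so that of enok2 was close to WT.

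The antisense sum over all features lay between 188 and 209 in the WT libraries, between 123 and 168 in those of enok1, and between 170 and 191 in those of enok2. The means were 75.8% of WT (exact permutation p = 0.1) and 91.6% (exact permutation p = 0.3), and 116% and 126% on the scale of the cluster sum. With CR43488 counted once they were 77.1% and 93.3% of WT. As a share of all antisense genic abundance it was 13.4% ± 0.97 (WT), 11.3% ± 0.94 (enok1) and 13.5% ± 0.80 (enok2) (exact permutation p = 0.1 and 0.9). As a share of all sense genic abundance, the sense sum was 11.6% ± 1.43 for WT. It was lower by 1.54 percentage points for enok1 and by 2.05 for enok2 (exact permutation p = 0.2 for each).

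The alleles were also compared with each other. None of the 39 sense and 32 antisense features was called between enok2 and enok1 by limma, and neither was any other genic feature of the 2769 and 216 tested (0.0% on each strand). At an unadjusted p under 0.05 there were 3 sense and 5 antisense non-coding features (7.69% and 15.6%), against 7.11% and 6.02% of all. CR40053 was among them on both strands, with log2 differences from enok1 of 0.99 (SE 0.24) for sense and 0.66 (SE 0.21) for antisense abundance, as were both antisense features of CR43636, with 0.85 (SE 0.29) and 0.83 (SE 0.34). The sense differences of all 39 features lay between −0.79 and 0.99, and the antisense ones of all 32 between −0.54 and 0.85.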

How the data were processed

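Small RNA libraries were made from total RNA of mid to late egg chambers, from ovaries with WT, enok1 or enok2 germline clones, 3 per group. The authors, per their methods, mapped reads to dm3 with piPipes without mismatches and normalized them to microRNAs; Trimmomatic is named in the submitters' processing notes. The deposited values are a signal that is never negative, with 1 column per library and no pooling. Unique mappers are described, but only 24.6% to 47.5% of the low values of the features (under 3) were whole multiples of 1 read within 0.005, so whole reads were not recovered and no count test was run. An abundance moves with the microRNAs of its library. The identifiers call the features 3′ UTR parts, a label without meaning for RNAs that encode no protein.

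Features of all transcripts with a mean of at least 1 over the 9 libraries (2769 sense, 216 antisense) were fitted with limma 3.58.1 in R 4.3.3 on log2(abundance + 1), with only the compared groups in each fit, eBayes without a trend and Benjamini-Hochberg adjustment over the strand. For low features the added 1 makes changes look smaller than they are. The steps were run on simulated whole read counts with the same dispersion for every feature. The deposited values were not whole reads, so that run checks the working of the steps and not the calls. Sums and shares were compared by 2-sided exact permutation tests. P-values rest on the spread between the libraries of a group, which the labels do not tie to separate animals. In the limma fits the variance of each feature was also drawn towards that of all tested features of the strand. Features named in the text were the 12 most abundant sense and 6 most abundant antisense ones, every called one, characterised RNAs such as 7SL, roX1, snRNAs and snoRNAs, and the 3 most like CR34335. Members and lists were chosen with earlier results of these data known. Classes follow RefSeq symbols of Release 6, and overlaps the BDGP6 annotation by gene name, while positions are dm3 starts. Other pseudocounts, filters, scalings and fits, and leaving out each library, were tried as alternatives.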

Additional observations from a re-analysis of the deposited data

How the results depend on the processing

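Precision was limited by depth, since a feature near an abundance of 1 rests on a few reads per library. No called change turned its direction under any alternative tried. Of the 28 called changes of single features, 28 were kept with the intensity trend, 28 with every deposited row kept, 27 with a pseudocount of 5 and 26 with 0.5, but 12 without a filter and 14 with the own variance of each feature, a test added after seeing the data. The 28 hold the antisense change of CR43488 in triplicate for each mutant. It was kept under all 16 alternatives that tested it, which raises these tallies. The antisense counts below hold it in triplicate too. The number of sense features called in enok1 was 7 (17.9%, against 8.02% of all features). It became 3 with a minimum mean of 10 (14.3% against 25.2%) and 3 without a filter (4.76% against 2.53%). It was 11 with every row kept (25.6% against 8.81%) and 1 with the own variance (2.56% against 0.903%). Leaving out 1 library gave 3 to 7 (7.69% to 17.9%, against 1.77% to 5.99%). In enok2 it was 3, and became 1 without a filter (1.59% against 0.901%) and 0 with the own variance (0.0722% of all). With 1 library left out it was 1 to 3 (2.56% to 7.69%, against 0.903% to 1.44%), and 1 without WT replicate 3. The number of antisense features called in enok1 was 7, and became 1 with a minimum of 10 (20.0% against 47.8%) and 4 without a filter (7.55% against 1.92%). Leaving out 1 library gave 6 to 9 (18.8% to 28.1%, against 18.1% to 25.0%). In enok2 it was 11, and became 1 with a minimum of 10 (20.0% against 52.2%) and 4 without a filter (7.55% against 2.01%). With 1 library left out it was 7 to 13 (21.9% to 40.6%, against 20.8% to 26.9%), and 7 without enok2 replicate 2.

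Scaling to the cluster sum, which itself fell in the mutants, moved the median log2 fold change of all sense features to 0.62 in enok1 and 0.42 in enok2. It gave 17 sense calls in enok1 (43.6%, against 47.0% of all features), 11 in enok2 (28.2% against 19.9%) and 11 antisense calls in each mutant (34.4%, against 38.0% and 29.2%). The sense sum then was 133% (enok1) and 119% (enok2) of WT, and the antisense sum 116% and 126%. Without CR34335 the sense sum in enok1 was 95.8%. With 1 library left out, the sense sums ranged from 82.3% to 89.2% in enok1 and from 82.9% to 89.9% in enok2.

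The replicate numbers did not pair the libraries, with correlations of same-numbered deviations between −0.118 and 0.136. With the replicate block the sense calls were 7 in enok1 (17.9%, against 6.5% of all features) and 3 in enok2 (7.69%, against 1.26%). The antisense calls were 8 (25.0%, against 22.7%) and 11 (34.4%, against 25.0%). In that fit 28 of the 28 called changes were kept.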
